A study of Mus musculus with 15 samples.

Results

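Border-associated macrophages are the macrophages that sit around the vessels of the brain, in the meninges and in the choroid plexus. They are a lineage beside microglia, the macrophages of the brain tissue itself, and both depend on the receptor CSF1R. They take up proteins, hyaluronan and other material at the brain surfaces through scavenger and endocytic receptors, and the transcripts of several of those receptors are used as their markers.

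The 9 genes described here are the perivascular and meningeal macrophage genes Stab1, Mrc1, Cd163, Lyve1, Folr2, F13a1, Pf4, Cbr2 and Ms4a7, all of which were found among the 53278 gene symbols of the count table. The table holds bulk RNA sequencing of brain cortex from 15 male C57BL/6J mice aged 10 to 20 weeks, with 1 library per mouse and 5 mice per group. Repopulated mice ate food with PLX3397, an oral CSF1R inhibitor that also acts on the related receptors KIT and FLT3, for 9 days, followed by 9 days back on control food. PLX3397 mice ate the PLX3397 food for 9 days, and control mice ate control food. Bulk RNA of whole cortex cannot tell fewer cells of a type from less RNA per cell, and some of these genes are also read in microglia or vessel cells. Total counts per library ran from 26837517 to 29582274 in repopulated mice, 23413551 to 29482140 on PLX3397 and 24347802 to 48617851 in controls. Levels are given in CPM, the reads of a gene scaled to a common library size with TMM factors, and 1 CPM rests on 23.2 to 48.8 reads per library.

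Csf1r, the gene of the receptor that the inhibitor blocks, stood at 105 ± 5.47 CPM in repopulated mice, 0.215 ± 0.12 CPM on PLX3397 and 84.9 ± 4.09 CPM in controls (SD, n = 5 each). Of the 17 homeostatic microglia genes used for comparison, the median gene stood at 107% ± 3.31 of the control mean in repopulated mice and at 0.631% ± 0.22 on PLX3397 (SD, n = 5 each).

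In controls all 9 genes lay below Csf1r, from 22.8 CPM for Stab1 to 0.132 CPM for Folr2. Per kilobase of exon, Stab1 led in controls with a level of 2.22 ± 0.174 CPM per kb, followed by Mrc1 with 0.882 ± 0.183. Cd163 (0.568 ± 0.0674), Cbr2 (0.557 ± 0.131), Pf4 (0.509 ± 0.235), Lyve1 (0.467 ± 0.203) and F13a1 (0.463 ± 0.0639) followed, and neighbours in that order differed by less than their SDs (n = 5). Folr2 (0.0852 ± 0.0684) and Ms4a7 (0.0537 ± 0.039) were the lowest and also differed by less than their SDs. For scale, Csf1r had 14.7 ± 0.709 CPM per kb in the same libraries. Pf4 is a short gene with 721 exonic bases, so its few reads stand for a level per length like that of Cd163, with 5461.

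The rule that keeps genes for testing needs about 10 reads, here 0.348 CPM, in at least 5 libraries, and 6 of the 9 genes passed it. Stab1 and Cd163 reached that level in all 15 libraries. Mrc1, F13a1 and Cbr2 reached it in 10 libraries, those of the repopulated and control mice, and Lyve1 in 12, of which 2 were PLX3397 libraries. These 4 genes thus entered the test through the groups where they were high. Pf4, Folr2 and Ms4a7 reached it in 3, 2 and 4 libraries and were too low to judge in that test.

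**Figure D1:**
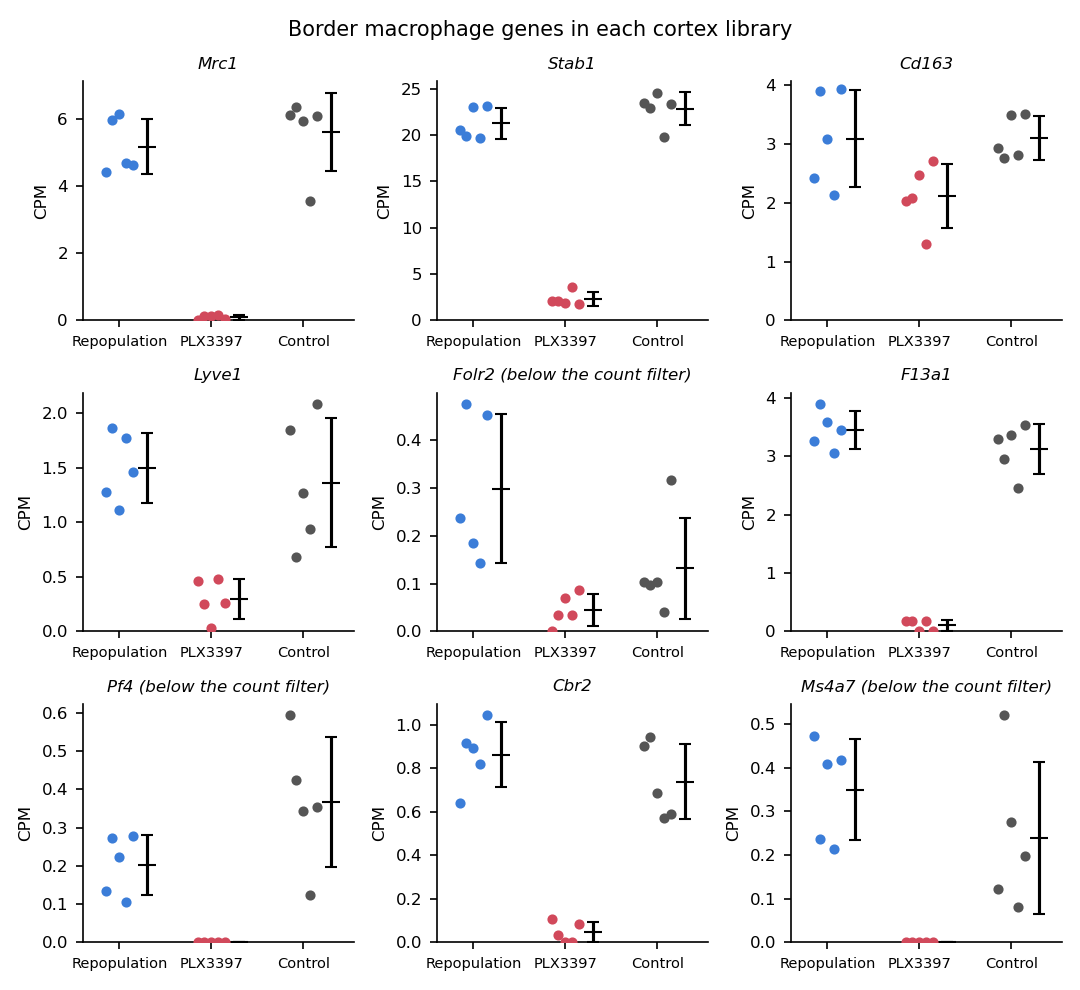
CPM of each gene (y axis, linear, starting at 0) in the 5 repopulation, 5 PLX3397 and 5 control libraries (x axis). Points are libraries, and the bar beside them is the mean with 1 SD. The PLX3397 and control libraries overlap for Folr2 and come close to each other for Cd163. Pf4, Folr2 and Ms4a7 are below the count filter.

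Stab1 encodes stabilin-1, a scavenger receptor that clears modified lipoproteins and cell remains, and is also known from sinusoidal endothelium. In repopulated mice it stood at 20.5, 19.9, 23.0, 19.6 and 23.1 CPM, on PLX3397 at 2.14, 2.12, 1.88, 3.59 and 1.81 CPM, and in controls at 23.5, 23.0, 24.6, 19.8 and 23.3 CPM. The PLX3397 libraries were all far below the rest, with mouse 4 above the other 4, while the repopulated and control libraries overlapped. PLX3397 left 10.1% ± 3.2 of the control mean (SD, n = 5), a log2 fold change against control of -3.30 (SE 0.12, edgeR quasi-likelihood test, Benjamini-Hochberg adjusted p = 1.78e-14). Repopulated mice were higher than PLX3397 mice by 3.19 on the log2 scale (SE 0.12, edgeR adjusted p = 2.91e-14).

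Mrc1 encodes the mannose receptor, which takes up glycoproteins and is the usual marker of perivascular macrophages. It stood at 4.42, 5.97, 6.16, 4.69 and 4.63 CPM in repopulated mice, at 0, 0.141, 0.139, 0.171 and 0.043 CPM on PLX3397, and at 6.12, 6.37, 5.93, 3.55 and 6.10 CPM in controls. In reads, the 5 PLX3397 libraries held 14 in all, against 738 in the repopulated libraries and 910 in the controls. Control mouse 4 was lower than every repopulated library. Mrc1 was left at 1.76% ± 1.3 of control on PLX3397 (log2 fold change -5.74, SE 0.29, edgeR adjusted p = 2.51e-13) and was 5.61 log2 units higher in repopulated than in PLX3397 mice (edgeR adjusted p = 4.42e-13).

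Cd163, the scavenger receptor for haemoglobin bound to haptoglobin, had the smallest fold change of the 6 tested genes on PLX3397. Its level was 2.43, 3.90, 3.08, 2.13 and 3.93 CPM in repopulated mice, 2.03, 2.08, 2.47, 1.30 and 2.71 CPM on PLX3397, and 2.93, 2.76, 3.50, 2.82 and 3.50 CPM in controls. PLX3397 libraries held 38 to 71 reads each and kept 68.3% ± 17.4 of the control mean (SD, n = 5), between 41.8 and 87.3%. The highest PLX3397 library lay just under the lowest control library, and repopulated libraries overlapped both groups. The log2 fold change was -0.56 against control (SE 0.18, 95% interval -0.93 to -0.18, edgeR adjusted p = 0.037), and repopulated mice were 0.56 higher than PLX3397 mice (SE 0.18, interval 0.18 to 0.93, edgeR adjusted p = 0.038). Both calls lay near the threshold. Over 15 fits that left out 1 library each, the first fold change ran from -0.65 to -0.42 and the call was lost in 6 (without control 1, 3 or 5, or PLX3397 1, 2 or 4, edgeR adjusted p = 0.0528 to 0.113). The second ran from 0.42 to 0.66 and was also lost in 6 (without PLX3397 1, 2 or 4, or repopulation 2, 3 or 5, edgeR adjusted p = 0.0653 to 0.122), and with only the 2 groups in the fit (edgeR adjusted p = 0.0632).

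Lyve1 encodes a receptor for hyaluronan and marks lymphatic endothelium as well as a subset of border macrophages. It had 38, 55, 30, 50 and 42 reads in repopulated mice, 13, 7, 1, 14 and 6 reads on PLX3397, and 90, 21, 37, 23 and 53 reads in controls. The repopulated libraries stood at 109.9% ± 23.4 of the control mean, while PLX3397 libraries averaged 0.296 ± 0.182 CPM and controls 1.36 ± 0.593 CPM (SD, n = 5 each). All PLX3397 libraries were below the other 10, and the controls varied more among themselves (0.683 to 2.09 CPM) than the repopulated mice (1.11 to 1.87 CPM). On PLX3397 21.7% ± 13.4 of the control mean was left. The log2 fold change was -2.20 against control (SE 0.38, edgeR adjusted p = 0.000346), and repopulated mice were 2.32 above PLX3397 mice (SE 0.38, edgeR adjusted p = 0.000177).

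F13a1 encodes the catalytic subunit of coagulation factor XIII, a transglutaminase that cross-links fibrin and is made by tissue macrophages. It stood at 3.27, 3.90, 3.60, 3.06 and 3.45 CPM in repopulated mice, at 0.178, 0.176, 0, 0.171 and 0 CPM on PLX3397, and at 3.30, 2.96, 3.36, 2.45 and 3.54 CPM in controls. In reads, the repopulated libraries held 494 in all, the PLX3397 libraries 15 and the controls 500. Repopulated and control libraries overlapped, and the PLX3397 libraries stood clear of both. The log2 fold change was -4.79 against control (SE 0.30, edgeR adjusted p = 2.31e-12), and repopulated mice were 4.94 above PLX3397 mice (SE 0.29, edgeR adjusted p = 8.61e-13).

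Cbr2, a carbonyl reductase that reduces small carbonyl compounds and is widely used as a marker of mouse tissue macrophages, was rarer. It had 19, 27, 24, 23 and 30 reads in repopulated mice, 3, 1, 0, 0 and 2 reads on PLX3397, and 44, 29, 20, 14 and 15 reads in controls. That is 0.862 ± 0.148, 0.0456 ± 0.0491 and 0.739 ± 0.174 CPM (SD, n = 5 each), with no overlap between the PLX3397 libraries and the others. Cbr2 fell by 3.98 on the log2 scale against control (SE 0.45, edgeR adjusted p = 3.17e-07), and repopulated mice were 4.17 above PLX3397 mice (SE 0.44, edgeR adjusted p = 8.48e-08). Without PLX3397 mouse 1, which held 3 of the 6 reads, these values became -4.58 and 4.77.

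Of the 6 tested genes, 6 fell and 0 rose on PLX3397, where 8.35% of all 18369 tested genes fell and 8.19% rose (edgeR, adjusted p under 0.05). In repopulated against PLX3397 mice 6 rose and 0 fell, where 7.61% of all genes rose and 8.98% fell. Since Mrc1, F13a1, Cbr2 and Lyve1 could enter the test only through the groups where they were high, these counts are a description. The 2 comparisons share the PLX3397 libraries. The median log2 fold change of the 6 was -3.64 on PLX3397 against control and 3.68 in repopulated against PLX3397 mice, beside medians of -0.002 and 0.001 over all tested genes.

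**Figure D2:**
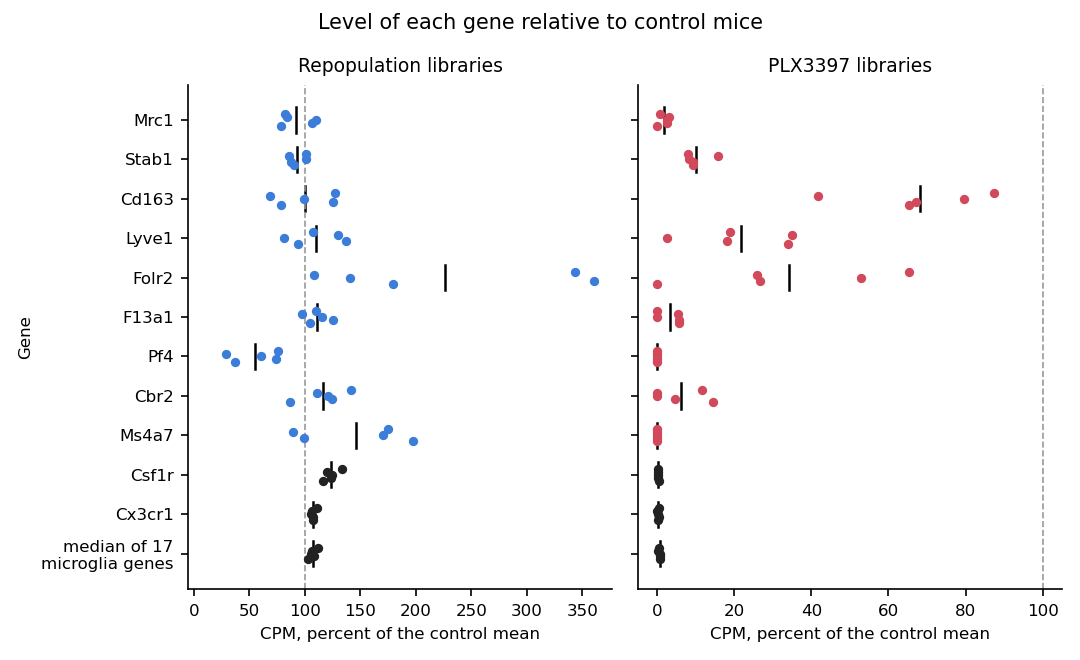
CPM of each gene as a percentage of the mean of the 5 controls (x axis, linear, with different ranges in the 2 panels) in repopulation libraries (left) and PLX3397 libraries (right). Points are libraries, short vertical bars are means, and the dashed line is the control mean. On PLX3397 the genes spread from 0% for Pf4 and Ms4a7 to 68.3% for Cd163, while the 17 microglia genes, drawn as their median (0.631%) with Csf1r and Cx3cr1, spread from 0.23% for Cx3cr1 to 58.8% for Sall1.

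The 3 remaining genes gave too few reads for the main test. Pf4 encodes a chemokine, also called CXCL4, that platelets and their precursors store and that border macrophages express. It had 4, 8, 6, 3 and 8 reads in repopulated mice, 0 reads in each PLX3397 library and 29, 13, 10, 3 and 9 reads in controls. With the PLX3397 group set at a floor of 3 counts, Pf4 was 9.31-fold lower on PLX3397 than in repopulated mice and 18.5-fold lower than in controls. Ms4a7, a membrane protein of a family with members on several leukocyte types, had 14, 7, 11, 6 and 12 reads in repopulated mice, 0 in each PLX3397 library and 6, 16, 8, 2 and 5 in controls. With the same floor it was 16.1-fold lower on PLX3397 than in repopulated mice and 10.7-fold lower than in controls. The 0 reads on PLX3397 have a 95% Poisson upper limit of 3.69 for each gene, above the floor of 3, so these ratios are not 95% bounds. The floor stands for the count of 0 alone, and the reads of the group it is set against were taken as counted. Those reads have 95% Poisson intervals of 19.4 to 41.7 and 49.3 to 81.7 for Pf4 in repopulated and control mice, and of 37.1 to 65.9 and 26.1 to 51.0 for Ms4a7.

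Folr2, the folate receptor beta of macrophages, had 7, 14, 5, 4 and 13 reads in repopulated mice, 0, 1, 2, 1 and 2 reads on PLX3397 and 5, 3, 3, 1 and 8 reads in controls. The PLX3397 libraries overlapped the controls, and stood below every repopulated library. Summed over 5 libraries, the counts were 43 (95% Poisson interval 31.1 to 57.9), 6 (2.20 to 13.1) and 20 (12.2 to 30.9). Of its 1546 exonic bases, 975 overlap exons of the antisense gene Gm10602, and without known strand reads of these genes cannot be told apart. With no filter on low counts, edgeR gave adjusted p-values of 3.46e-10 for Pf4, 6.51e-07 for Ms4a7 and 0.25 for Folr2 on PLX3397 against control, while DESeq2 gave none for these 3 genes. In repopulated against PLX3397 mice the unfiltered edgeR values were 4.07e-06 for Pf4, 3.11e-09 for Ms4a7 and 0.00119 for Folr2, and those of DESeq2 were 5.95e-05, 1.63e-06 and 0.00487. Those fits are given for completeness and support no call.

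Mice that had returned to control food were then set against mice that had never received PLX3397. Of the 6 tested genes, 0 differed (edgeR adjusted p of 0.439 to 0.999, 0 at an unadjusted p under 0.05, and 0 by DESeq2), in a comparison where 29.1% of all tested genes were called in either direction. The log2 fold changes were -0.13 for Mrc1, -0.11 for Stab1, 0.14 for F13a1, 0.0004 for Cd163, 0.12 for Lyve1 and 0.19 for Cbr2. Their 95% intervals give the differences that these data do not exclude. As a ratio to control they ran from 0.812 to 1.06 for Stab1, 0.732 to 1.14 for Mrc1, 0.862 to 1.41 for F13a1 and 0.782 to 1.28 for Cd163. For the scarcer genes they were wider, 0.709 to 1.67 for Lyve1 and 0.784 to 1.67 for Cbr2. Among the 3 genes below the filter, repopulated mice had 29 reads of Pf4 against 64 in controls, 43 of Folr2 against 20 and 50 of Ms4a7 against 37, with overlapping libraries for each. In the same comparison Csf1r was 0.305 log2 units higher in repopulated mice (edgeR adjusted p = 5.1e-05) and Cx3cr1, the fractalkine receptor of microglia, had a log2 fold change of 0.10 and was not called (edgeR adjusted p = 0.258).

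**Figure D3:**
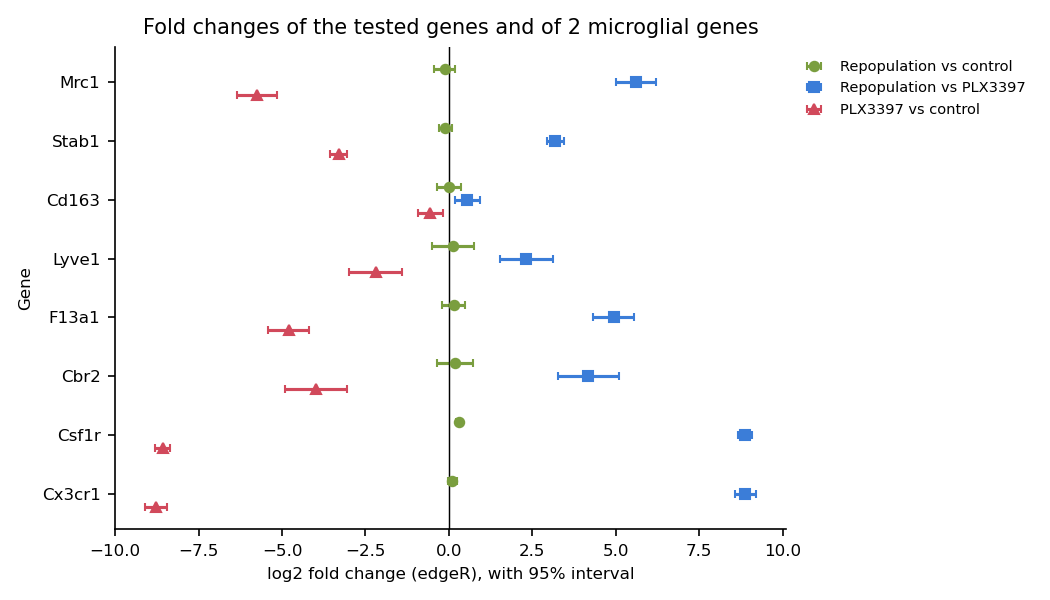
log2 fold change of the 6 tested genes and of Csf1r and Cx3cr1 (x axis) in repopulation against control, repopulation against PLX3397 and PLX3397 against control, with 95% intervals from the edgeR fit. For the 6 genes the intervals of repopulation against control all include 0, and those of the other comparisons do not.

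The proximal promoters of the 4 genes with the smallest adjusted p on PLX3397 are shown because those genes moved together, with the 250 bases before the RefSeq start of each gene, written 5′ to 3′ along the gene. Capitals mark the letters GAGGAA, the purine core to which the macrophage factor PU.1 binds, and TGCTGA, a half-site of MAF factors, on either strand (so TTCCTC and TCAGCA count too). Build GRCm38.p6 was used.
Stab1, chr14:31168642-31168891, minus strand: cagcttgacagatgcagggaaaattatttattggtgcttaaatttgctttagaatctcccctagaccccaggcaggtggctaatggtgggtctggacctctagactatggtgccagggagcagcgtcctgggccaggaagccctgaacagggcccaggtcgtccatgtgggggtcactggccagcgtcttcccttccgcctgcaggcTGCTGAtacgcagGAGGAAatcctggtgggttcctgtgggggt
Mrc1, chr2:14229164-14229413, plus strand: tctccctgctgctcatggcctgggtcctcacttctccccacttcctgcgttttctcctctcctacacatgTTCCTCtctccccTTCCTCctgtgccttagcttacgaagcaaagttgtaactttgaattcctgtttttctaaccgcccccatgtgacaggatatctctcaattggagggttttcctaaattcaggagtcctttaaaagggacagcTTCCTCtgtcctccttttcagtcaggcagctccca
F13a1, chr13:37050245-37050494, minus strand: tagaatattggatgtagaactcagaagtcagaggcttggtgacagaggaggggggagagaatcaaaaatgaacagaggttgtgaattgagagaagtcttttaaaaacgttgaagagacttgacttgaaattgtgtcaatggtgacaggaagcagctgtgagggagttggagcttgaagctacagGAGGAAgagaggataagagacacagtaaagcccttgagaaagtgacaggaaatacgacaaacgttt
Cbr2, chr11:120732022-120732271, minus strand: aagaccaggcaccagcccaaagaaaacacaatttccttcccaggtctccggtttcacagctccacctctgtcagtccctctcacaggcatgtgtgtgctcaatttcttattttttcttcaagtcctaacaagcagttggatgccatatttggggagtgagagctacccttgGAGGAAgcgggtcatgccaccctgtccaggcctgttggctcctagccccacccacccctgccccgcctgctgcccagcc

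GAGGAA was found 3 times before Mrc1 and once each before Stab1, F13a1 and Cbr2, and TGCTGA once, before Stab1. The RefSeq start of Cbr2 lies 93 bases inside the GENCODE gene, so its GAGGAA falls within the gene as annotated there. The last 22 bases of the Mrc1 window also lie inside the GENCODE gene, with no match among them. Of the 8 genes with a promoter in the RefSeq table, which leaves out Lyve1, 5 held GAGGAA and 2 held TGCTGA, against 23.3% and 16.1% of all 32851 promoter windows of that length. The window of Cd163 held neither word. A match of letters is a description of the window and says nothing of whether a factor binds there.

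On the GRCm38 annotation all 9 are protein-coding genes on 8 chromosomes. Stab1 lies on chromosome 14 from 31139013 to 31168641, Mrc1 on chromosome 2 from 14229392 to 14332057, Cd163 on chromosome 6 from 124304656 to 124330527, and Lyve1 on chromosome 7 from 110850607 to 110863239. F13a1 lies on chromosome 13 from 36867178 to 37050244 and Cbr2 on chromosome 11 from 120729489 to 120732114. Pf4 lies on chromosome 5 from 90772435 to 90773383, Folr2 on chromosome 7 from 101839988 to 101857194 and Ms4a7 on chromosome 19 from 11321039 to 11336146. Stab1 shares 112 of its 10288 exonic bases with Nt5dc2 on the other strand and F13a1 74 of 6739 with the antisense gene Gm30489, while Mrc1 hosts the microRNA gene Mir511 with 0 exonic bases shared.

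Beyond the 9 genes, 18 further border macrophage genes were read, of which 10 passed the count filter. On PLX3397, 7 of the 10 fell and 0 rose, with a median log2 fold change of -0.63, beside 8.35% lower among all genes. The 3 not called were Cd36, Colec12 and Cd38, with log2 fold changes of 0.37, 0.07 and -0.27 (edgeR adjusted p = 0.438, 0.785 and 0.311). The summed level of the 18 genes was 67.1 to 78.8% of the control mean in PLX3397 libraries. Lyz2, the lysozyme of myeloid cells, averaged 0.168 ± 0.189 CPM on PLX3397 and 4.76 ± 0.39 CPM in controls (log2 fold change -4.80, edgeR adjusted p = 4.06e-11). Hpgd, which breaks down prostaglandins, averaged 0.708 ± 0.0951 and 3.56 ± 0.302 CPM (-2.33, edgeR adjusted p = 3.34e-12), and the endocytic adaptor gene Dab2 7.71 ± 0.855 and 11.6 ± 1.58 CPM (-0.58, edgeR adjusted p = 3.05e-05). In repopulated against PLX3397 mice 7 of the 10 rose and 0 fell, with a median of 0.62, beside 7.61% higher among all genes. Siglec1, Ms4a6b and Lyz2 averaged 0.0139, 0.0710 and 0.168 CPM on PLX3397, under the filter level of 0.348 CPM. They entered the test through the groups where they were high, so these counts are a description. Siglec1, a sialic acid receptor of macrophages, averaged 1.57 ± 0.21 CPM in repopulated mice, 0.0139 ± 0.0191 CPM on PLX3397 and 0.381 ± 0.211 CPM in controls, and was 2.00 log2 units higher in repopulated than in control mice (SE 0.29, edgeR adjusted p = 1.64e-05). It was the 1 higher gene of the 10 in that comparison, and the 1 lower gene was Cd38, an ectoenzyme that consumes NAD (-0.49, edgeR adjusted p = 0.0339). Among all tested genes 13.9% were higher and 15.2% lower there. Cd209f, Cd209b, Cd209g, Clec10a, Clec4n, Ms4a6c, Mgl2 and Ccl24 did not pass the filter. All of these except Ms4a6c averaged lower in repopulated than in control mice. Cd209f averaged 0.0279 ± 0.0157 CPM in repopulated mice and 0.214 ± 0.0751 CPM in controls, and Cd209b 0.00696 ± 0.0156 and 0.144 ± 0.0747 CPM. Mgl2 averaged 0.113 ± 0.0675 and 0.331 ± 0.0718 CPM. These levels rest on few reads and were not tested.

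Of 13 relatives of the 9 genes by family or ligand, 8 passed the filter. Their median log2 fold change on PLX3397 was -0.11, and 2 fell and 0 rose, beside 8.35% lower among all genes. These were Ms4a6d, a neighbour of Ms4a7 in its family, which averaged 0.0421 ± 0.0295 CPM on PLX3397 and 0.682 ± 0.108 CPM in controls (-3.86, edgeR adjusted p = 5.84e-07), and Mrc2, a collagen receptor of the mannose receptor family (-0.30, edgeR adjusted p = 0.033). Ms4a6d, too, entered the test through the groups where it was high. Stab2, the other stabilin, had a log2 fold change of -0.25 (edgeR adjusted p = 0.438). Cbr1, another carbonyl reductase, had one of 0.03 (edgeR adjusted p = 0.64), and Cbr1 and Cbr3 were both lower in repopulated than in control mice (-0.13 and -0.49, edgeR adjusted p = 0.0216 and 0.0017). Folr1, a folate receptor of the choroid plexus, was not called (1.24 on PLX3397, edgeR adjusted p = 0.418).

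Genes of the other cell types that could carry these transcripts were read in the same libraries. Meningeal fibroblast genes, which share the brain surface with these macrophages, summed to 116 to 161 CPM in repopulated mice, 128 to 155 CPM on PLX3397 and 126 to 166 CPM in controls. On PLX3397 against control 0 of those 12 genes were called (0 at an unadjusted edgeR p under 0.05 and 0 by DESeq2), with a median log2 fold change of 0.01. In PLX3397 libraries the summed level of the 9 border macrophage genes was 12.3 to 15.3% of the control mean, and that of the fibroblast genes 89.6 to 109%. The sum of the 9 genes is mostly Stab1, which averaged 22.8 CPM in controls, where the sum was 30.4 to 40.0 CPM. How much of Stab1 came from border macrophages and how much from microglia was not tested. Single genes of the 9 stood at 0 to 68.3% of control on PLX3397.

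**Figure D4:**
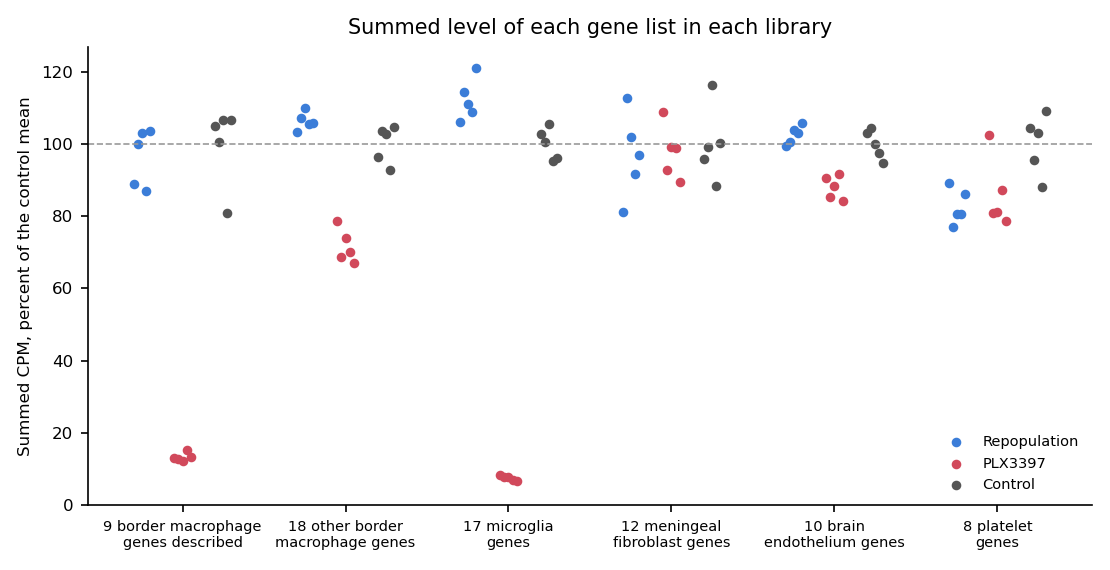
Summed CPM of each gene list in each library as a percentage of the mean of the 5 controls (y axis, linear, starting at 0), with repopulation, PLX3397 and control libraries from left to right within each list. The 9 border macrophage genes and the 17 microglia genes lie near the bottom in the PLX3397 libraries, while the fibroblast, endothelium and platelet lists lie between 78.7 and 109% there.

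Among all tested genes 8.35% fell and 8.19% rose on PLX3397. Of 10 genes of brain endothelium, 4 fell on PLX3397, with summed levels of 236 to 257 CPM on PLX3397 and 266 to 293 CPM in controls. They were Itm2a (-0.35, edgeR adjusted p = 0.00447), the growth factor receptor gene Flt1 (-0.18, edgeR adjusted p = 0.0364), the adhesion gene Pecam1 (-0.14, edgeR adjusted p = 0.0403) and the transporter gene Slco1a4 (-0.19, edgeR adjusted p = 0.0467). Of 6 lymphatic endothelium genes, 4 passed the filter and 1 was called, Reln, which cortical neurons also make and which was higher (0.27, edgeR adjusted p = 0.0108). Prox1 and Flt4, used as markers of lymphatic vessels, had log2 fold changes of 0.03 and -0.03 (edgeR adjusted p = 0.913 and 0.929). Whether their reads came from lymphatic vessels was not tested, and Ccl21a and Mmrn1 of the same list did not pass the filter. Of 8 platelet genes, 4 passed and 1 fell, Gp1bb (-0.29, edgeR adjusted p = 0.0357), with sums of 15.5 to 20.1 CPM on PLX3397 and 17.3 to 21.5 CPM in controls. Most of that sum was Gp1bb, at 12.6 ± 2.03 CPM on PLX3397 and 15.4 ± 1.55 CPM in controls. Ppbp, Gp9, Treml1 and Tubb1 averaged 0.0041 to 0.111 CPM in controls and did not pass the filter, so the sum says little of them. Of 10 monocyte and neutrophil genes 0 passed the filter, and their summed level was 0.172 to 0.273 CPM on PLX3397 and 0.368 to 1.30 CPM in controls. Choroid plexus genes summed to 264 to 1148 CPM in repopulated mice, 286 to 565 CPM on PLX3397 and 235 to 286 CPM in controls, with 0 of 7 called on PLX3397 (0 at an unadjusted edgeR p under 0.05 and 0 by DESeq2). The 1148 CPM was repopulated mouse 4 alone, and the other repopulated mice had 264 to 286 CPM. Most of the control sum was Enpp2, at 241 ± 14.7 CPM. Ttr was uneven between libraries, at 72.0 ± 72.1 CPM on PLX3397 and 7.11 ± 6.07 CPM in controls. Of lymphocyte and erythroid genes, 1 and 3 passed the filter and 0 were called on PLX3397 (0 and 1 at an unadjusted edgeR p under 0.05, and 0 by DESeq2). The part of any of these cell types in the results was not tested.

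Genes were ranked by how closely their log2 CPM followed each tested gene over the 15 libraries. Among 13525 candidates with a mean of at least 1 CPM, Stab1 ran closest with Laptm5, Rnase4 and C1qb (Pearson r 0.993 for each) and Mrc1 with Arhgap45, P2ry12 and P2ry13 (0.987 to 0.989). F13a1 ran closest with Mlxipl, Msn and Selplg (0.981 to 0.985) and Lyve1 with Cflar, Arhgap4 and Mlxipl (0.934 to 0.953). For Cbr2, with 13526 candidates, they were Dock2, Selplg and Slc15a3 (0.979 to 0.983). The 3 groups form clusters, so these values mainly describe a shared difference between groups. Cd163 had no neighbour as close, and its nearest genes were Cacng4, Clmp and Vcan (0.84 to 0.873).

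Cacng4 and Vcan are genes of oligodendrocyte precursors, and Vcan averaged 16.0 ± 2.5 CPM on PLX3397 and 23.4 ± 1.9 CPM in controls (-0.55, edgeR adjusted p = 0.000142). A list of 9 other precursor genes, chosen after those neighbours were seen, had 7 lower and 0 higher on PLX3397, beside 8.35% lower among all genes. Its median log2 fold change was -0.90. In repopulated against PLX3397 mice 5 were higher and 0 lower, beside 7.61% higher among all genes. PLX3397 mouse 4 was the lowest library of its group for both Cd163 and the list. With group means taken out, the deviations of Cd163 and of that list over 15 libraries had a Pearson r of 0.648 and a Spearman rho of 0.55, and r of 0.323 without the 2 libraries farthest out on the list, so the relation rests on those libraries. Values of similar size were found for other genes and lists. The same r was -0.747 for Stab1, and without the 2 libraries it was 0.711 for Lyve1 and 0.653 for Cbr2. Cd163 had an r of 0.62 with the lymphocyte list and 0.608 with the lymphatic endothelium list. Each is given as a description with no test, and the part of precursor cells in the Cd163 values was not tested.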

How the data were processed

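Read counts per gene were deposited for cortex of 15 mice, as whole numbers that the authors did not normalise. The tools named in the submitters' processing notes are STAR, FastQC, MultiQC, DESeq and DESeq2, and the build is mm10. What each did, which program counted reads, its annotation and its strand setting were not given in the sources used. Columns were matched to mice by group and number.

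Genes were kept by filterByExpr (18369 of 53278), scaled with TMM factors and tested with edgeR 4.0.16 in R 4.3.3 (quasi-likelihood F test, robust, all 15 libraries in 1 fit, no covariate). P-values were adjusted by the Benjamini-Hochberg method across the 18369 genes and called under 0.05, and 95% intervals use the fit's own degrees of freedom. CPM use TMM-scaled totals. The 9 genes, the lists and the rule for named genes (the 9, Csf1r, Cx3cr1, up to 4 genes per list by smallest adjusted p in any comparison, and the 3 nearest genes by correlation) were chosen with earlier results of these data known. Some list members, such as Stab2, Folr1, Prox1 and Flt4, are named outside that rule, after their values were seen. Alternatives were DESeq2 1.42.0, other scaling, no filter, 2 groups only, a replicate block and leaving out each library. Coordinates and exon lengths came from GENCODE M21 on GRCm38, which is mm10, and promoters from RefSeq.

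Of 15 pairs of libraries with the same number, 1 had a correlation of deviations over 0.1. The labels do not state that the numbers pair mice, and this check cannot exclude it. The main fit used no pairing, and a fit with the number as a block is among the alternatives. No 2 libraries held identical counts.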

Additional observations from a re-analysis of the deposited data

Results flagged for a closer look

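In 3 of 25 sets of 5 values (9 genes in 3 groups, without Pf4 and Ms4a7 on PLX3397, where all 5 values were 0), 1 library stood apart from the other 4 by more than Dixon's 95% limit of 0.71, which chance alone passes in about 1 of 20 sets. Stab1 stood at 3.59 CPM in PLX3397 mouse 4, against 1.81 to 2.14 CPM in the other PLX3397 mice. Mrc1 stood at 3.55 CPM in control mouse 4, against 5.93 to 6.37 CPM in the other controls. Control mouse 4 was also the lowest control for Stab1, F13a1, Pf4, Cbr2, Folr2 and Ms4a7, but not for Cd163 and Lyve1. Its sum of the 9 genes was 30.4 CPM, against 37.7 to 40.0 CPM in the other controls. This library lowers the control mean, and without it the median tested gene of repopulated mice stood at 98.3% of control. Folr2 stood at 0.315 CPM in control mouse 5, where it had 8 reads, against 0.0408 to 0.103 CPM in the other controls. In PLX3397 mouse 4 Cd163 was the lowest of its group, at 1.30 CPM, and the median microglia gene was the lowest too, at 0.329% of control. Mrc1 (0.171 CPM, 5 reads) and Lyve1 (0.478 CPM, 14 reads) were, like Stab1, highest of the PLX3397 group in that mouse, though on few reads.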

How the results depend on the processing

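The counts of called genes among the 9 and over the whole table stayed within 1.5 times of their values under all 21 alternatives per comparison. On PLX3397 against control 6 to 8 of the 9 fell, and in repopulated against PLX3397 mice 5 to 9 rose, against 6 in each as reported. Counts above 6 came with no filter, with DESeq2, or when 1 library was left out and the filter, which then needs fewer libraries, left 2 of the 9 too low in place of 3. Counts of 5, in repopulated against PLX3397 mice, came where the Cd163 call was lost. On PLX3397 against control the Cd163 call was lost in 6 fits that left out 1 library, yet the count stayed at 6 or more. Without control mouse 1, Cd163 was not called (edgeR adjusted p = 0.0528), 2 of the 9 were too low and 6 fell. A count of 6 there is thus not always the same 6 genes. In repopulated against control mice 0 were called under each. With the replicate number as a block, the counts of lower and higher genes among the 9 were 6 and 0, 0 and 6, and 0 and 0, so no call on them changed. Cd163 in repopulated against control mice, at 0.0004, changed sign with no filter (-0.0035), with the block (-0.0232), with DESeq2 (-1e-04) and with only those 2 groups (-0.0034), and ran from -0.1021 to 0.1079 when libraries were left out. Lyve1 in that comparison ran from -0.0474 to 0.2966 when libraries were left out, the lowest without control mouse 2. Neither gene was called in any of these fits. The median tested gene stood at 98.3 to 106% of control in repopulated and 8.08 to 8.68% in PLX3397 mice under other scalings or without 1 control. Depth limits mainly Pf4, Folr2 and Ms4a7, whose 69 to 93 reads over all 15 libraries set what could be told apart.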
